A study of Homo sapiens with 12 samples.

Results

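The NIBAN family was followed in A549 lung adenocarcinoma cells with and without TUSC3 under ER stress. Its 3 members are NIBAN1, NIBAN2 and NIBAN3, known earlier as FAM129A, FAM129B and FAM129C. The features annotated with these symbols were taken, and each gene had 1 feature of its own on the array, so 3 of the 22411 genes tested belong to the family. NIBAN1 was chosen by its own measured values, as one of the genes that tunicamycin (TM) raised most on these arrays, and its TM response is therefore given as a description with no test. The other members came in by family, and their TM responses were tested.

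NIBAN proteins are cytosolic proteins that share an N-terminal domain related to the pleckstrin homology fold. NIBAN1 is known as a gene that cells switch on under ER stress and lack of amino acids, and its protein has been linked to the phosphorylation of the translation factors eIF2alpha and 4E-BP1 and to the AKT, MDM2 and p53 axis. NIBAN2, also called MINERVA, is a phosphorylation target of the RAF, MEK and ERK cascade, lies at adherens junctions and can bind KEAP1, the sensor that holds down NRF2. NIBAN3 is mainly known from B cells. In ER stress the kinase PERK phosphorylates eIF2alpha, which slows protein synthesis but lets the transcription factor ATF4 be translated, and ATF4 and its target CHOP then drive a set of genes called the integrated stress response.

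RNA was measured on GeneChip Human Transcriptome Arrays in 4 groups of 3 arrays each: TUSC3 KO cells given TM, control cells given TM, TUSC3 KO cells given DMSO, and control cells given DMSO. TM blocks N-linked glycosylation, and it was used at 3 ug/ml for 16 h. The KO cells were made with a CRISPR construct and grown from a single cell, and 1 clone was put on the arrays, so a difference of genotype and a difference of clone cannot be told apart. The values are on the log2 scale and come from RMA, a method that subtracts background, gives all arrays 1 distribution and summarises the probes of a transcript as 1 value. Their median over all features and arrays was 4.77, and a gene whose group mean lies below it is treated here as near background. A value of 1 feature cannot be set against that of another, so the levels of the 3 genes are not compared with each other.

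TUSC3, a subunit of the oligosaccharyltransferase and the targeted gene, averaged 5.60 ± 0.15 in KO and 6.94 ± 0.05 in control cells under TM, and 5.53 ± 0.03 in KO and 7.10 ± 0.06 in control cells under DMSO (SD, n = 3 arrays each), with no overlap of arrays. It had a log2 difference of -1.34 between KO and control cells under TM (SE 0.07, adjusted p = 9.7e-08 from limma) and of -1.57 under DMSO (SE 0.07, adjusted p = 4.3e-08 from limma). Arrays of 1 group correlated at 0.9958 to 0.9985 over all genes. All 8 markers of carcinoma epithelium lay above 4.77 in every group, and their mean was 8.89 to 8.94 on KO and 8.65 to 8.69 on control arrays under TM, where 4 were higher and 1 lower in KO cells (KRT19 was higher by 0.60 and EPCAM by 0.54). What part these marker differences have in the differences of genotype below was not tested. Over all genes 8.99% were higher and 7.97% lower in KO cells under TM. Among markers of other cell types, 4 of 11 B cell genes (MS4A1, CR2, FCRLA and BANK1) lay below 4.77 in every group. So did 5 of 10 blood, endothelial and fibroblast genes (PTPRC, CD3E, PECAM1, DCN and LUM). The rest lay above 4.77 in every group, with group means of 5.67 to 5.78 for CD22 and 5.49 to 5.66 for CD79A. A value above 4.77 therefore does not by itself show that a gene is expressed. The mean of the 11 B cell markers was 4.66 to 4.85 on the TUSC3 KO arrays under TM, 4.73 to 4.81 on control arrays under TM, 4.76 to 4.77 on TUSC3 KO arrays under DMSO and 4.69 to 4.77 on control arrays under DMSO. The labels do not say that the arrays of a group came from separate cultures, so a p-value measures the spread between these arrays, which may be technical, and precision is limited by there being 3 of them. RNA of a whole culture cannot tell fewer cells that express a gene from less RNA per cell.

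The 250 bases before the annotated start of NIBAN1 and of NIBAN2 are printed because TM moved the RNA of these 2 members in opposite directions. They were taken from RefSeq on GRCh38.p14. Both genes lie on the minus strand, NIBAN1 at chr1:184974509-184974758 and NIBAN2 at chr9:127579032-127579281, and the bases run 5' to 3' along the gene. Capitals mark CCACG, the end of the ER stress element that ATF6 binds, and TGATG, the core of the element that ATF4 binds with C/EBP proteins, on either strand (CGTGG and CATCA on the other).
NIBAN1: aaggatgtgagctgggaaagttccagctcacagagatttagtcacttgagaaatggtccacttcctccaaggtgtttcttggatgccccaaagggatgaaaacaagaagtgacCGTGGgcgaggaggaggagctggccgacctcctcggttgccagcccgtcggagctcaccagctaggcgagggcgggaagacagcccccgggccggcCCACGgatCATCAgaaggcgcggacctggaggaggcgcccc
NIBAN2: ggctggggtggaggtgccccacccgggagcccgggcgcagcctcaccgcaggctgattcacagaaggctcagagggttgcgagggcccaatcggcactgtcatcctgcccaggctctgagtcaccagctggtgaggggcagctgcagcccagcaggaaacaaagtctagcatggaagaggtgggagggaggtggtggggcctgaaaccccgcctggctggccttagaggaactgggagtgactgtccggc

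The NIBAN1 window held CCACG once on each strand, with first printed bases 41 and 137 bases before the start, and TGATG once on the other strand, 33 bases before the start. The copies at 41 and 33 bases did not overlap. The NIBAN2 window held neither motif. On either strand CCACG is found in 33.5% and TGATG in 28.8% of the 35116 promoter windows of this length. The full ER stress element, CCAAT and CCACG with 9 bases between them (0.074% of windows), the element TGACGTGG (0.612%), the core TGACG, which TGACGTGG contains (21.2%), and the ATF4 element TGATGNAAT, which contains TGATG (0.888%), were in neither window. The table holds 3 windows for NIBAN3. The first held CCACG once, and the others, which start 2 bases apart and overlap almost fully, share 1 copy on the other strand. These are matches of letters and do not show binding.

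NIBAN1 RNA was near background without stress and high with TM in both genotypes. In TUSC3 KO cells the 3 arrays read 7.65, 7.60 and 7.78 under TM, against 3.86, 3.87 and 3.93 under DMSO. Control cells had 8.13, 8.25 and 8.12 under TM, against 3.76, 3.72 and 3.84 under DMSO. Every TM array lay far above every DMSO array, and the 6 DMSO arrays all lay below 4.77.

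The measured log2 difference of TM and DMSO was 3.79 (SE 0.05) in KO and 4.39 (SE 0.05) in control cells. Because the DMSO values of NIBAN1 were near background, these differences do not fix a size. Counted from the median of all features on each DMSO array, NIBAN1 was at least 7.52-fold higher with TM in TUSC3 KO cells and at least 10.6-fold higher in control cells (log2 differences of 2.91 and 3.40). By measured difference, which chose it, NIBAN1 stood first of 22411 genes in each genotype, but its place in KO cells is not fixed, since its bound of 2.91 lay below the 2.97 measured for TXNIP, an arrestin-like protein that was itself near background under DMSO (at least 2.68). In control cells the bound of 3.40 lay above the measured differences of the genes next in order, DDIT3, which encodes CHOP, at 2.61 (at least 2.34, as its DMSO values were near background) and HYOU1 at 2.48. As DDIT3 has only a bound, the place of NIBAN1 in control cells is not fixed against it either.

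**Figure D1:**
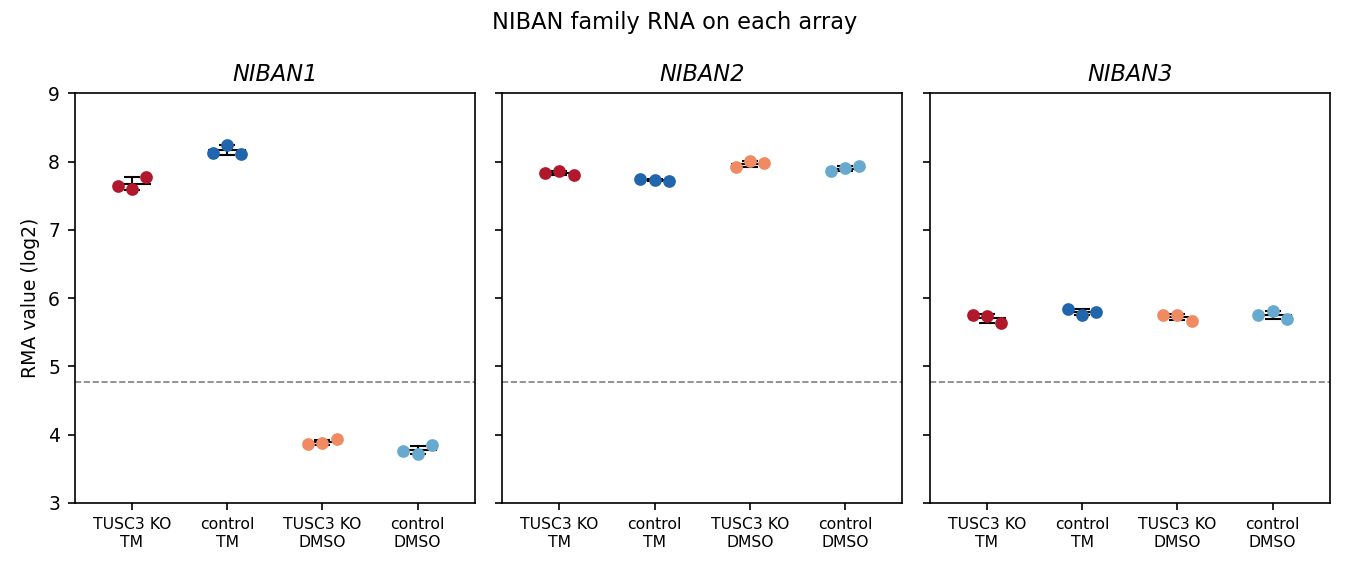
RMA values (log2) of NIBAN1, NIBAN2 and NIBAN3 on each of the 12 arrays, with 1 point per array, a bar at the mean of 3 arrays, whiskers of 1 SD and a dashed line at the median of all features (4.77). The NIBAN1 arrays under TM sit between 7.60 and 8.25 and those under DMSO between 3.72 and 3.93, while NIBAN2 stays between 7.71 and 8.01 and NIBAN3 between 5.63 and 5.84.

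NIBAN1 was lower in KO than in control cells once stress was applied. Under TM it averaged 7.68 ± 0.09 in KO and 8.17 ± 0.07 in control cells (SD, n = 3 arrays each). The log2 difference was -0.49 (SE 0.05, 95% interval -0.61 to -0.37, adjusted p = 6.4e-05 from limma), a ratio of 0.713. All 3 KO arrays lay below all 3 control arrays (two-sided exact permutation p = 0.1, as small as 3 against 3 can give). NIBAN1 was the only member called lower here. Among all genes 17.0% were called in this comparison, 8.99% higher and 7.97% lower, and NIBAN1 stood 160th from the lowest difference.

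Without stress the genotypes could not be ordered for NIBAN1. It averaged 3.88 ± 0.04 in KO and 3.77 ± 0.06 in control cells under DMSO (SD, n = 3 arrays each), both below 4.77. The arrays did not overlap, but the difference of 0.11 (SE 0.05) did not pass (adjusted p = 0.27 from limma), and values near background give no fold. In this comparison 12.7% of all genes were called, 6.58% higher and 6.11% lower, and no member of the family.

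Whether TM moved NIBAN1 by a different amount in the 2 genotypes was tested as an interaction, the TM difference in TUSC3 KO minus that in control cells. It is built from the same TM differences that chose NIBAN1, on the same arrays. The genotype in which the TM rise was read for the choice is not recorded. A choice by the rise in control cells would favour a lower interaction and a lower KO value under TM. The p-values of these 2 comparisons are therefore not independent of the choice. It was -0.60 for NIBAN1 (SE 0.08, 95% interval -0.76 to -0.43, adjusted p = 0.00073 from limma). With values below the median of an array set to that median, which removes the part measured near background, it was -0.49 (adjusted p = 0.00087 from limma). Every DMSO value of NIBAN1 was replaced in this way. The -0.49 is therefore close to the genotype difference under TM given above and adds no separate evidence. The interaction was called for 7.91% of all genes, 4.18% higher and 3.73% lower, and for no other member. NIBAN2 had 0.03 (95% interval -0.07 to 0.13) and NIBAN3 had -0.06 (95% interval -0.20 to 0.08).

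NIBAN2 fell slightly with TM in both genotypes. Its arrays read 7.84, 7.86 and 7.80 in TUSC3 KO cells under TM, against 7.92, 8.01 and 7.98 under DMSO. In control cells they read 7.74, 7.73 and 7.71 under TM, against 7.86, 7.91 and 7.93 under DMSO. In each genotype all TM arrays lay below all DMSO arrays, by steps far smaller than those of NIBAN1.

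The log2 difference of TM and DMSO for NIBAN2 was -0.14 (SE 0.03, adjusted p = 0.0056 from limma) in TUSC3 KO and -0.17 (SE 0.03, adjusted p = 0.0016 from limma) in control cells, ratios of 0.907 and 0.887. Among all genes TM moved 27.4% in KO cells, 12.5% up and 14.9% down, and 24.8% in control cells, 11.2% up and 13.6% down. By size the falls of NIBAN2 ranked 3777th from the lowest in TUSC3 KO cells and 2899th in control cells. The fall in TUSC3 KO cells lost its call with the methods' two-tailed comparison of 2 groups after Benjamini-Hochberg adjustment (adjusted p = 0.062).

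Between genotypes, NIBAN2 stood opposite to NIBAN1 under TM, with a difference near the threshold. It averaged 7.83 ± 0.03 in KO and 7.73 ± 0.02 in control cells under TM (SD, n = 3 arrays each), with no overlap of arrays. The difference of 0.11 (SE 0.03, 95% interval 0.04 to 0.18) had an adjusted p = 0.039 from limma, and the call was lost in 4 of 8 other settings and with any of 6 arrays left out: control replicate 1, 2 or 3 under TM, TUSC3 KO replicate 1 or 2 under TM, or TUSC3 KO replicate 3 under DMSO (0.09 to 0.12 over all 12 arrays left out, adjusted p = 0.032 to adjusted p = 0.12 from limma). The 8 settings include the mean of a gene's features, which could not differ, as NIBAN2 has a single feature. Under DMSO NIBAN2 averaged 7.97 ± 0.05 in KO and 7.90 ± 0.04 in control cells, the arrays overlapped, and the difference of 0.08 (SE 0.03) did not pass (adjusted p = 0.18 from limma).

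NIBAN3 gave no call in any of the 5 comparisons. Under TM its arrays read 5.75, 5.74 and 5.63 in TUSC3 KO and 5.84, 5.75 and 5.79 in control cells. Under DMSO they read 5.75, 5.75 and 5.67 in TUSC3 KO and 5.75, 5.81 and 5.70 in control cells. The groups overlapped in each of the 4 comparisons of 2 groups, and 5 of the 12 arrays, from all 4 groups, carried exactly the same deposited value.

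For NIBAN3 the difference of TUSC3 KO and control cells was -0.09 under TM (95% interval -0.19 to 0.01, adjusted p = 0.23 from limma) and -0.03 under DMSO (95% interval -0.13 to 0.07). TM and DMSO differed by -0.02 in TUSC3 KO cells (95% interval -0.12 to 0.08) and by 0.04 in control cells (95% interval -0.06 to 0.14). Each interval leaves out a change of 0.20 or more in log2 units. The values do not show that NIBAN3 was expressed, so this bounds a change of the signal only. B cell markers, which belong to the cells in which NIBAN3 is best known, had no call for TM among 11 genes in either genotype, and BANK1, which is near background in every group, was the 1 gene called between genotypes. TM moved 27.4% of all genes in KO and 24.8% in control cells. Between genotypes 12.7% of all genes were called under DMSO and 17.0% under TM.

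The genes of the integrated stress response, to which NIBAN1 is usually counted, give its setting. With TM 26 of the 27 listed genes rose in KO cells and 27 rose in control cells, with medians of 0.839 in KO and 0.851 in control cells, against -0.006 and 0.025 over all genes. The exception was NUPR1, a stress-induced cofactor, with 0.21 in KO cells (adjusted p = 0.1 from limma). TM raised 12.5% of all genes in KO and 11.2% in control cells. DDIT3 was at least 2.32 higher in log2 units in TUSC3 KO and at least 2.34 in control cells. ALDH1L2, a mitochondrial folate enzyme, rose by 2.01 and 2.04, WARS1, the tryptophan tRNA synthetase, by 1.44 and 1.86, TRIB3, a pseudokinase that CHOP induces, by 1.06 and 1.32, and PPP1R15A, which brings phosphatase to eIF2alpha, by 1.14 and 1.24. The lower bounds of NIBAN1, 2.91 in KO and 3.40 in control cells, lay above the rises of all these genes but DDIT3, for which only a bound can be given as well. As NIBAN1 was chosen for a large TM rise, this order follows from the choice and is a description only.

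**Figure D2:**
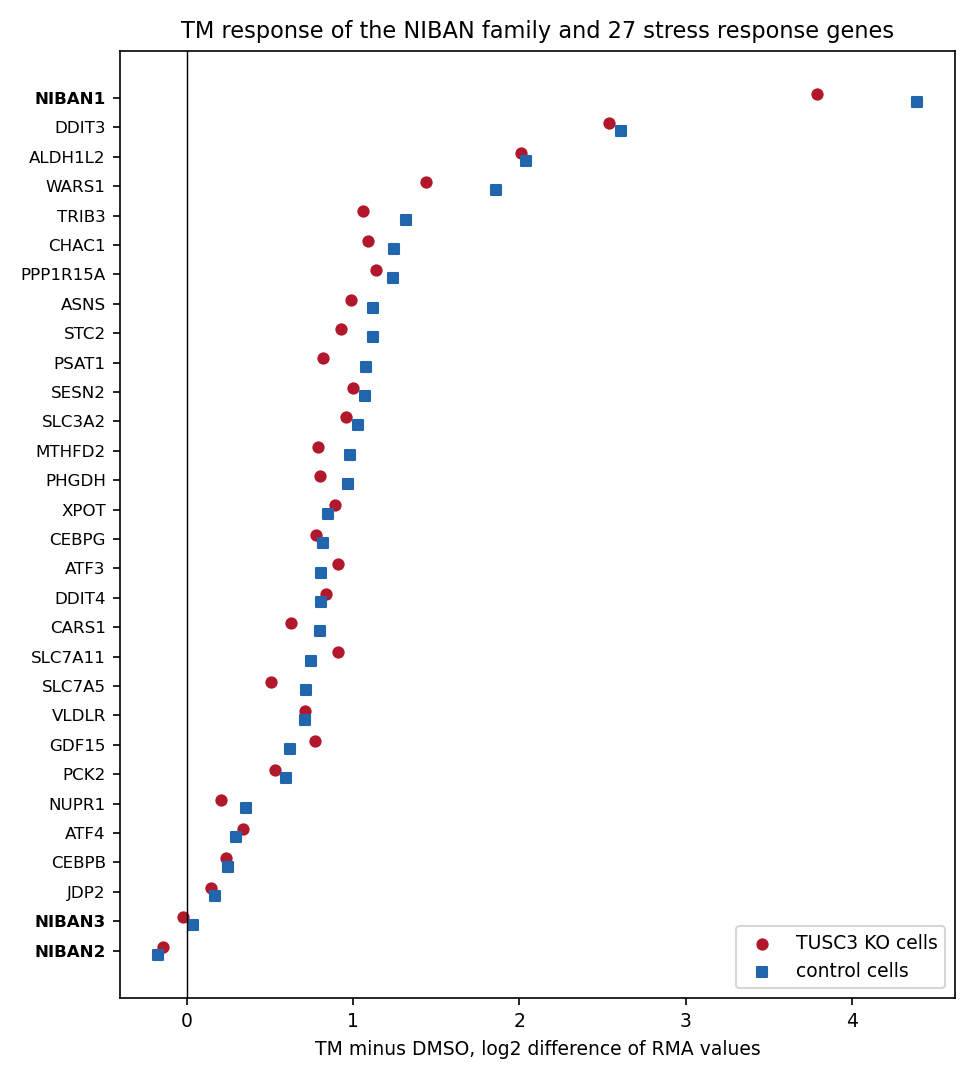
Log2 difference of TM and DMSO for the NIBAN family (bold) and 27 genes of the integrated stress response, with circles for TUSC3 KO cells and squares for control cells, ordered by the value in control cells. NIBAN1 stands at 3.79 and 4.39 and NIBAN2 at -0.14 and -0.17, and the points of NIBAN1 and DDIT3 are measured from DMSO values near background, so their sizes are not fixed.

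The stress response list did not move as one between genotypes under TM. Of its 27 genes, 4 were higher and 5 lower in KO cells, and 18 gave no call, with a median of -0.012 against -0.021 over all genes. These are 14.8% higher and 18.5% lower, against 8.99% and 7.97% of all genes. VLDLR, a lipoprotein receptor, fell by 0.36, PHGDH, the first enzyme of serine synthesis, by 0.34, SLC7A5, a transporter of large amino acids, by 0.24 and DDIT4, an inhibitor of mTORC1, by 0.21. ALDH1L2 was 0.41 higher and SLC7A11, the cystine transporter, 0.25 higher. No gene of the list had a difference as low as that of NIBAN1 (-0.49), and the interval of NIBAN1 (-0.61 to -0.37) overlapped that of VLDLR (-0.50 to -0.22).

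DDIT3 and ATF4, both transcription factors of the response, gave no call there. Among other transcription factors on the list, ATF3 was higher in KO cells (0.15, adjusted p = 0.034 from limma), and CEBPB, CEBPG and JDP2 gave no call. ATF4 was singled out after its values were seen. DDIT3 had a difference of -0.01 under TM (95% interval -0.15 to 0.13) and ATF4 of 0.00 (95% interval -0.07 to 0.08), with adjusted p = 0.93 and adjusted p = 0.96 from limma. By interaction 5 genes of the list were lower and none higher: WARS1 (-0.42), TRIB3 (-0.26), PSAT1 of serine synthesis (-0.26), SLC7A5 (-0.21) and MTHFD2 of mitochondrial folate metabolism (-0.19). These are 18.5% lower, against 3.73% lower and 4.18% higher over all genes. WARS1, TRIB3 and PSAT1 were higher in KO cells under DMSO (0.50, 0.33 and 0.18) and gave no call between genotypes under TM. SLC7A5 and MTHFD2 gave no call under DMSO and were lower in KO cells under TM (-0.24 and -0.21). NIBAN1 had an interaction of -0.60.

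**Figure D3:**
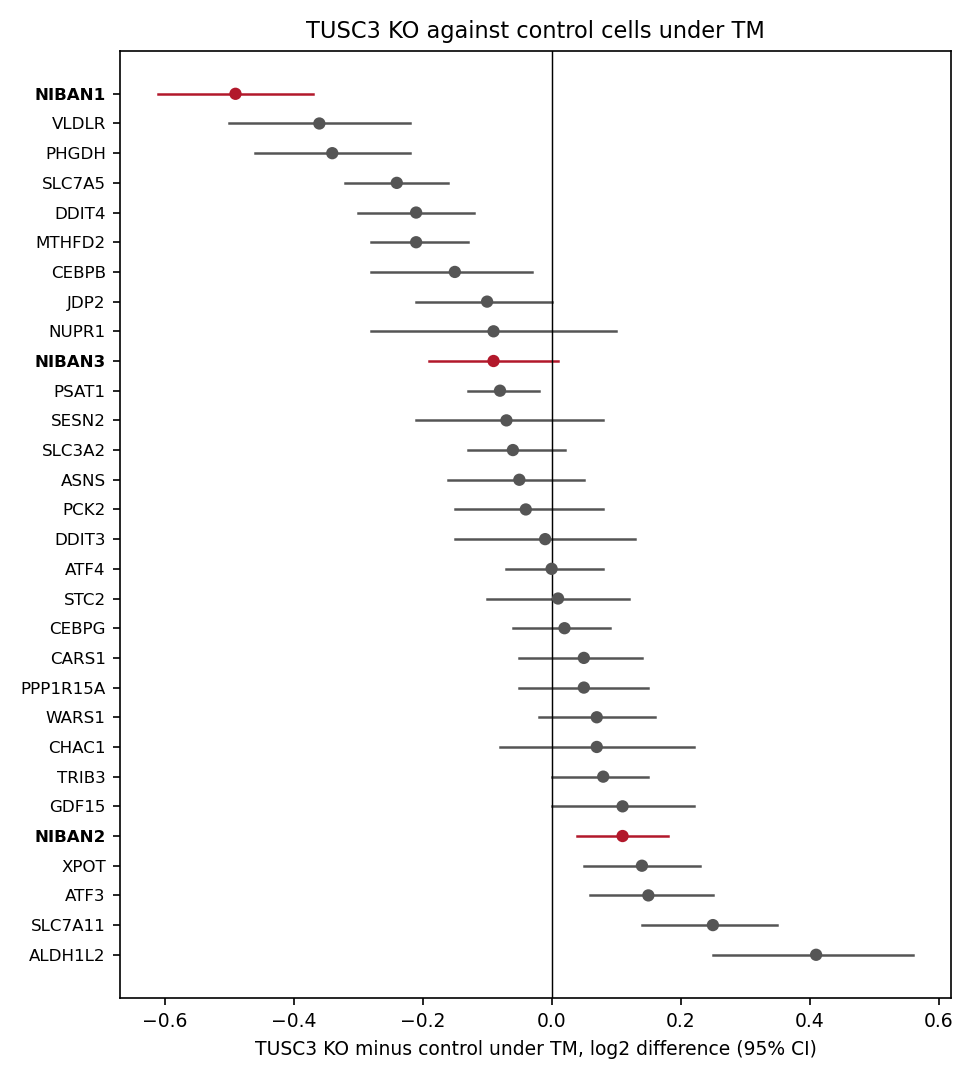
Log2 difference of TUSC3 KO and control cells under TM for the NIBAN family (bold, red) and 27 genes of the integrated stress response (grey), with points at the limma estimate and lines for the 95% interval. NIBAN1 has the lowest value at -0.49, DDIT3 and ATF4 lie at -0.01 and 0.00, and NIBAN2 lies at 0.11.

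Among genes whose products act on eIF2alpha and on translation downstream of it, where NIBAN1 has been placed, 4 of 15 rose and 5 fell with TM in TUSC3 KO cells, and 5 rose and 3 fell in control cells. Over all genes TM raised 12.5% and lowered 14.9% in KO cells, and raised 11.2% and lowered 13.6% in control cells. EIF2AK3, which encodes PERK, rose by 0.92 in KO and 0.83 in control cells, and PPP1R15B, a second phosphatase adaptor, by 0.43 and 0.39. EIF4EBP1, which encodes the translation repressor 4E-BP1, rose by 0.14 and 0.41. EIF4EBP2, its paralog, fell by 0.32 and 0.56. Under TM, TUSC3 KO cells had less EIF4EBP1 than control cells (log2 difference -0.27, adjusted p = 0.00042 from limma) and more EIF4EBP2 (0.43, adjusted p = 2.5e-06 from limma). The third gene called there was EIF2AK1, the eIF2alpha kinase HRI (0.13), and 12 did not pass. Over all genes 8.99% were higher and 7.97% lower in this comparison.

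In the AKT, MDM2 and p53 list, 10 of 14 genes were tested. With TM, 3 rose and 5 fell in TUSC3 KO cells, and 5 rose and 3 fell in control cells. The shares of all genes were 12.5% up and 14.9% down in KO cells, and 11.2% up and 13.6% down in control cells. PHLPP1, a phosphatase that acts on AKT, fell by 0.54 in KO and 0.71 in control cells and AKT1 by 0.44 and 0.36, while MDM2, the ubiquitin ligase of p53, rose by 0.31 and 0.35 and its relative MDM4 by 0.35 and 0.44. Under TM 2 of the 10 were lower in KO than in control cells and none was higher. They were PHLPP1, with a difference of -0.31 (adjusted p = 0.00055 from limma), and NPM1, the nucleolar protein nucleophosmin, with -0.15 (adjusted p = 0.037 from limma). Over all genes 7.97% were lower and 8.99% higher in this comparison.

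In the list of KEAP1, NRF2 and NRF2 targets, the first of those tied to NIBAN2, 6 of 11 genes were lower and none higher in KO cells under DMSO, with a median of -0.133 against 0.009 over all genes. NFE2L2, which encodes NRF2, had a difference of -0.39 (adjusted p = 1.4e-06 from limma) and CUL3, the ligase scaffold that works with KEAP1, of -0.19. Under TM 3 were lower, NFE2L2 by a difference of -0.19, CUL3 by -0.26 and the heme oxygenase HMOX1 by -0.32. TM raised 6 of the 11 in each genotype, among them GCLC, of glutathione synthesis, by 0.70 in KO and 0.61 in control cells, while NIBAN2 fell in both. Over all genes TM raised 12.5% in KO and 11.2% in control cells. In KO against control cells 6.11% of all genes were lower under DMSO and 7.97% under TM.

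Of 6 tested genes of the RAF, MEK and ERK list, EGFR rose with TM by 1.28 in KO and 1.39 in control cells and MAPK3, which encodes ERK1, fell by 0.26 and 0.30. Between genotypes EGFR was higher in KO cells, by 0.24 under DMSO and by 0.13 under TM. Of 9 genes of adherens junctions and beta-catenin, 3 were higher and 1 lower in KO than in control cells under TM. JUP, or plakoglobin, was 0.77 higher, CDH1, the epithelial cadherin, 0.53 and CDH2, the neural cadherin, 0.31, and MYC had a difference of -0.30. The difference of NIBAN2, which was higher in KO cells too, was 0.11. Over all genes 8.99% were higher and 7.97% lower in KO cells under TM.

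The profile of NIBAN1 over the 12 arrays was set against that of every other gene. Likeness was the root mean square distance between 2 profiles, each centred on its own mean, in log2 units. The 8 closest genes were DDIT3 (0.779), CLGN (0.904), HYOU1 (0.926), HERPUD1 (0.972), ARRDC4 (1.03), SLFN5 (1.04), SEL1L (1.04) and WIPI1 (1.06). Pearson's r with NIBAN1 was 0.947 to 0.996 over the 12 arrays, which fall into TM and DMSO arrays, so r mainly repeats that split. The list depends on the measure: by r the same genes ranked from 7th (DDIT3) to 328th (WIPI1), with SLFN5 322nd and HERPUD1 115th. The distances also rest on DMSO values of NIBAN1 near background, which do not fix the height of its profile.

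All 8 rose with TM in both genotypes, as the choice by profile fixes. They include CLGN, an ER chaperone known from testis, the ER chaperone HYOU1, HERPUD1 and SEL1L of ER-associated degradation, and WIPI1 of autophagy. Between genotypes under TM none of them was lower in TUSC3 KO cells. Over all genes 7.97% were lower and 8.99% higher in this comparison, so none lower among 8 genes is near the share of all genes. HERPUD1 was higher by 0.27, SLFN5, a member of the Schlafen family, by 0.70, SEL1L by 0.22 and WIPI1 by 0.73 (adjusted p = 0.0042 or less from limma), and DDIT3, CLGN, HYOU1 and ARRDC4 did not pass, with differences of -0.06 to 0.08. NIBAN2 and NIBAN3 had distances of 2.14 and 2.05 from NIBAN1 and r of -0.85 and 0.14.

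**Figure D4:**
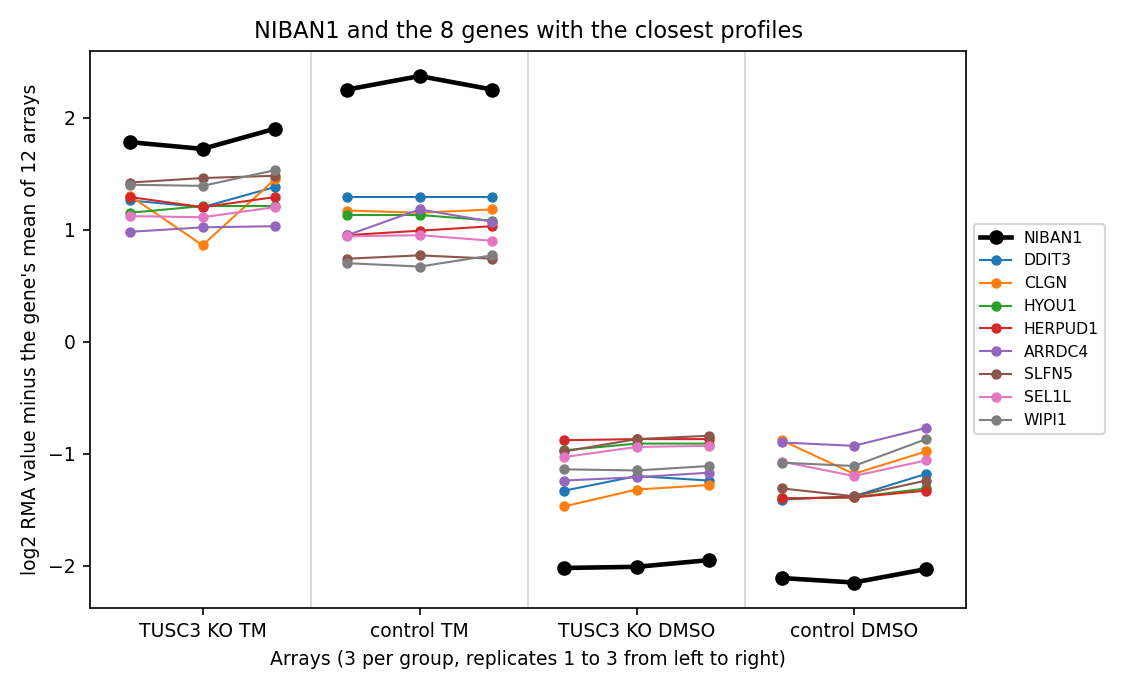
Log2 RMA values of NIBAN1 (thick black) and of the 8 genes with the closest profiles, each minus its own mean over 12 arrays, with 1 point per array and lines joining the arrays of a group. All 9 genes are high under TM, but NIBAN1 has its lower TM values in TUSC3 KO cells, whereas WIPI1 and SLFN5 have their higher ones there.

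The nearest tested protein-coding genes in the annotation were read to see whether the changes of the family ran over its neighbours. Beside NIBAN1 on chromosome 1, EDEM3, which trims mannose from misfolded glycoproteins, was 0.50 higher in KO than in control cells under TM (SE 0.05, adjusted p = 3.3e-05 from limma), opposite to NIBAN1. With TM it rose by 0.47 in TUSC3 KO cells and had a difference of 0.10 in control cells that did not pass. C1orf21, with a mean of 4.77 over the 12 arrays, was lower in KO cells under TM (-0.65) and under DMSO (-0.80), where it was near background in KO cells so that these sizes are not fixed, and did not pass for TM in either genotype. On the other side, TRMT1L, a tRNA methyltransferase relative, rose with TM by 0.20 in KO cells (adjusted p = 0.041 from limma) and had 0.06 in control cells, and its difference of 0.11 between genotypes under TM did not pass. SWT1 was near background in every group, with a called TM difference of 0.43 in KO cells (adjusted p = 0.001 from limma), -0.02 in control cells and a called difference of 0.41 between genotypes under TM, none of which fixes a size. Thus 3 of the 4 neighbours, SWT1 near background among them, were called higher with TM in KO cells, the direction of NIBAN1. None was in control cells, where NIBAN1 was high too. Over all genes 12.5% were called higher with TM in KO and 11.2% in control cells.

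Beside NIBAN2 on chromosome 9, RPL12, a ribosomal protein, rose with TM by 0.23 in KO and 0.27 in control cells, where NIBAN2 fell. RPL12 was also called lower in KO than in control cells, with -0.11 under TM and -0.08 under DMSO. LRSAM1, a ubiquitin ligase, had TM differences of 0.12 in KO and 0.16 in control cells, and only the value in control cells passed. CFAP157 and TTC16 gave no call. Beside NIBAN3 on chromosome 19, COLGALT1, which adds galactose to collagen, fell with TM by 0.59 in KO and 0.40 in control cells, where NIBAN3 did not pass, and had differences of -0.40 between genotypes under TM and -0.21 under DMSO. PGLS, of the pentose phosphate pathway, had -0.16 between genotypes under TM (adjusted p = 0.024 from limma) and rose with TM by 0.16 in control cells. SLC27A1, a fatty acid transporter, gave no call. UNC13A, of vesicle priming, fell with TM by 0.21 in control cells and had -0.15 between genotypes under DMSO, which passed.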

How the data were processed

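RNA of A549 cells was hybridised to 12 arrays in 4 groups of 3. The authors deposited log2 expression values that they had computed with RMA. The sources used here give neither a version of RMA nor an annotation build. Of 70523 features, 23781 carried 1 gene symbol in the platform annotation, 1543 several and 45199 none. After 306 symbols were updated, 22411 genes were tested with 1 feature each, the brightest where a gene had several.

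Differences between groups were fitted in limma 3.58.1 (R 4.3.3) with a trend of variance over level, 1 spread per gene over all 12 arrays and Benjamini-Hochberg adjustment over all genes, and called at an adjusted p under 0.05. The 5 comparisons share groups. The members, gene lists and rules were chosen with earlier results of these data known. Named are the members, up to 4 genes of a list in its main direction and 2 in the other, the 8 genes closest to NIBAN1 and 2 neighbours on each side. Where a count was 5 or fewer, its genes were named after their values were seen. Listed genes without a single-symbol feature were not analysed here. The fit was tested on simulated data for TUSC3 KO against control cells under DMSO. It called 29 of 50 genes given a log2 change of 0.25, 42 of 50 given 0.5 and 49 of 50 given 1. Among 22211 unchanged genes it called 10. Changes below 0.25 were not simulated, so a small difference that did not pass does not show that a gene was unchanged. Other settings tried were another quantile normalization, no variance trend, the compared groups alone, a replicate block, the mean of a gene's features, dim genes left out, the methods' test and each array left out. Permutation tests used scipy 1.17.1 in Python 3.11.15, and figures matplotlib 3.10.9.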

Additional observations from a re-analysis of the deposited data

Results flagged for a closer look

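The effect of TM differed between TUSC3 KO and control cells, by limma's interaction term, for NIBAN1 and for 20 other genes named above. NIBAN1 had an interaction of -0.60. In the integrated stress response list WARS1 had -0.42, TRIB3 -0.26, PSAT1 -0.26, SLC7A5 -0.21 and MTHFD2 -0.19. WARS1, TRIB3 and PSAT1 were higher in KO cells under DMSO and gave no call between genotypes under TM, unlike NIBAN1. In the translation list EIF4EBP1 had -0.27 and EIF4EBP2 0.24. NFE2L2 had 0.20. In the junction list JUP had 0.63, CDH1 0.53 and MYC -0.33. Among the genes closest to NIBAN1 in profile, HYOU1 had -0.36, HERPUD1 -0.23, SLFN5 0.29 and WIPI1 0.84. HYOU1 and HERPUD1 were higher in KO cells under DMSO (0.44 and 0.50) and not lower under TM (0.08 and 0.27), unlike NIBAN1. Beside NIBAN1 in the genome EDEM3 had 0.36 and SWT1, near background, 0.44. The epithelial markers EPCAM and KRT19 had 0.24 and 0.23. TXNIP, second to NIBAN1 by measured TM difference in KO cells, and near background under DMSO there, had 1.39.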

How the results depend on the processing

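Of 295 values of the 3 members under other settings, 280 kept their direction and side of the threshold or moved by less than the spread. Part of this was fixed beforehand. Each member has a single feature, so the mean of a gene's features repeats the main fit. Leaving out an array of a group that is not compared cannot move the difference, though it can move the adjusted p. NIBAN1 in TUSC3 KO against control cells under TM ran from -0.54 to -0.45 with each array left out (highest adjusted p = 0.00056 from limma) and from -0.52 to -0.49 in the other settings. Its interaction ran from -0.65 to -0.56 with an array left out. With values below the median of an array set to it, a setting chosen after the data were seen, its TM difference was 2.91 in TUSC3 KO and 3.40 in control cells. NIBAN2 in TUSC3 KO against control cells under TM lost its call with quantile normalization once more (0.08), without the variance trend (0.11), with the compared groups alone (0.11), after the methods' two-group test with Benjamini-Hochberg adjustment (0.11) and in 6 of 12 leave-one-out fits (0.09 to 0.12). Its TM fall in TUSC3 KO cells lost its call in that adjusted two-group test (-0.14). NIBAN3 changed sign for TM in TUSC3 KO cells with quantile normalization once more (0.0032) and without TUSC3 KO replicate 3 under TM (-0.04 to 0.02 over the 12 arrays). The cause of these shifts was not tested.

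The methods' test called 4404 genes unadjusted and 1424 adjusted, against 2844 with limma, for TUSC3 KO against control cells under DMSO. Adjusted, it called 1559 against 3801 under TM, and 3730 against 6144 for TM in TUSC3 KO cells. The labels do not say that a replicate number marks a shared culture or day, and same-numbered arrays correlated at -0.098 to 0.386 in their deviations. The 6 pairs of replicate 3 were all above 0.1 (0.134 to 0.344). Pairs of replicate 1 ran from -0.065 to 0.174 and those of replicate 2 from -0.098 to 0.386, on both sides of 0. The arrays were not treated as paired, and whether those of replicate 3 share an effect was not tested. With the replicate number as a block NIBAN1 under TM had -0.49 and an interaction of -0.60, and 3286 genes were called between genotypes under DMSO and 4437 under TM, against 2844 and 3801 without it. No detection call comes with these values, which limits what can be said of NIBAN1 under DMSO and of NIBAN3 in every group.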
